A study of Mus musculus with 3 samples.

Results

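The genes described here are those of osteocalcin and of the control of mineralization: *Bglap* and *Bglap2*, which encode osteocalcin, *Mgp*, *Alpl*, *Runx2*, *Enpp1* and *Ank*. They are 7 of the 15554 genes of an expression table of NIH3T3 cells, an established line of mouse embryonic fibroblasts. They were chosen by symbol from values of these same libraries that were already known, so their levels and changes are a description and carry no test. All 7 had a row in the table.

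The cells were kept in serum-free IMDM and then had either no stimulation (CTRL), 100 ng/mL of GDF15 protein or 4 ng/mL of TGF-β protein for 24 h. GDF15 is a secreted member of the TGF-β superfamily. The study compared its effect on fibroblasts with that of TGF-β. RNA samples were pooled within each treatment and 1 library was made from each pool, so no spread between cultures can be given and no difference between treatments was tested. Expression is given as FPKM, the number of fragments scaled by transcript length and by the mapped total of the library.

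Osteocalcin and matrix Gla protein (*Mgp*) are small secreted proteins that carry γ-carboxyglutamate, or Gla, residues, which are made by a vitamin K-dependent carboxylase and bind calcium. Osteocalcin is the Gla protein of bone and is made by mature osteoblasts, whereas *Mgp* keeps cartilage and vessel walls from calcifying. *Runx2* is the transcription factor that commits cells to the osteoblast lineage. Mineral growth also depends on the balance between phosphate and pyrophosphate. *Enpp1* makes pyrophosphate, a mineralization inhibitor, from ATP outside the cell, *Ank* is a membrane protein that supplies pyrophosphate to the extracellular space, and tissue-nonspecific alkaline phosphatase (*Alpl*) breaks pyrophosphate down.

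*Bglap* and *Bglap2* lie close together on the minus strand of chromosome 3. In GENCODE M21 (GRCm38, the same assembly as mm10), *Bglap* lies at chr3:88383501-88384464 and *Bglap2* at chr3:88377736-88378699, with a gap of 4801 bases between them. The coding sequences are shown because they set how far reads can be told apart. Each runs 5′ to 3′ from the start codon over 285 bases without the stop codon, and capitals mark the 4 positions at which the genes differ.
Bglap: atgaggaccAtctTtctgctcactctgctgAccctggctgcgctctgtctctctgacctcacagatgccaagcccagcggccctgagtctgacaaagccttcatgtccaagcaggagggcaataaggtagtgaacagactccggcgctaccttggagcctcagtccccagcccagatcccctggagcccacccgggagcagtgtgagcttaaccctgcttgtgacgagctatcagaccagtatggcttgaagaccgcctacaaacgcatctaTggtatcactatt
Bglap2: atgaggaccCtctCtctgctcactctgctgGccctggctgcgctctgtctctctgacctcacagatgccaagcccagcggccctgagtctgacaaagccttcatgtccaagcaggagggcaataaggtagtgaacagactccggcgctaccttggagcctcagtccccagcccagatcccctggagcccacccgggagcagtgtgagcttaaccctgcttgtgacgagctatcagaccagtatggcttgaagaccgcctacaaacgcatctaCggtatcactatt
The coding sequences of *Bglap* and *Bglap2* were 98.6% identical.

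Reads were 50 bases long and single-end, so the share of 50-base windows that also occur in the other gene bears directly on each FPKM. Of the 391 windows of the main *Bglap* transcript (440 bases), 292 (74.7%) were identical to a window of *Bglap2*, and 363 (92.8%) differed from one by at most 2 bases. Of the 422 windows of *Bglap2* (471 bases), 292 (69.2%) were identical to a window of *Bglap*, and 363 (86%) came within 2 bases. The single values of *Bglap* and *Bglap2* therefore depend on how the authors' software divided shared reads, and their sum is given as well.

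**Figure D1:**
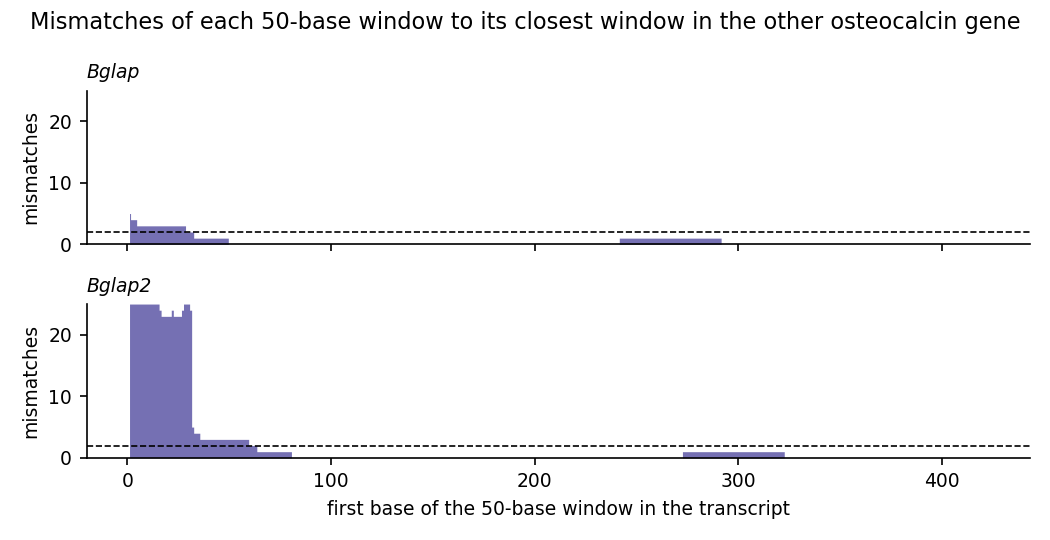
For each 50-base window along the *Bglap* and *Bglap2* transcripts (horizontal axis, window start in bases from the 5′ end), the fewest mismatches to any window of the other gene (vertical axis, drawn up to 25 mismatches). The dashed line marks 2 mismatches. Windows at 0 are the 74.7% of *Bglap* and the 69.2% of *Bglap2* that occur unchanged in the other gene.

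The *Bglap* promoter is shown because it holds a match to the core sequence bound by Runx factors. The 250 bases before the RefSeq start of *Bglap* (part of the GRCm38.p6 promoter entry chr3:88384417-88384716, minus strand) are given 5′ to 3′, with matches to ACCACA and to TATAAA, the core of a TATA box, in capitals.
Bglap promoter: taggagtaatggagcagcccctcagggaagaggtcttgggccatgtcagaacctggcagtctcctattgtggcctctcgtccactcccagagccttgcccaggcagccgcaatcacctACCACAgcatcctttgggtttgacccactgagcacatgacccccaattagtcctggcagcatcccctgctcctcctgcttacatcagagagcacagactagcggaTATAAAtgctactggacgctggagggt
The Runx core sequence ACCACA was searched on both strands (TGTGGT on the other) and began at position -132 from the start, and TATAAA began at -27. Promoter entries of 300 bases were present for 5 of the 7 members. *Runx2* had 3 matches to ACCACA and *Enpp1* had 1, whereas the entries of *Alpl* and *Ank* had none. Of all 32851 promoter entries, 5506 (16.8%) held ACCACA and 2733 (8.32%) held TATAAA, so a match is common and describes the letters of the window only. *Bglap2* and *Mgp* had no entry.

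Depth was estimated from the steps between the lowest FPKM values, and in units of 1e6 came to 18.8 fragments for CTRL, 22 for GDF15 and 18 for the TGF-β library. These depths turn an FPKM into an estimated number of fragments, and the 95% intervals below are exact Poisson intervals on those numbers, or exact intervals of their ratio. They cover counting error only, and not the division of shared reads, the spread between cultures or error in the estimated fragments. The estimate used no transcripts as short as those of *Bglap* and *Bglap2*, so for these genes it is an extrapolation. Fibroblast markers were high in all libraries, with a summed FPKM of the 10 markers of 16437 in CTRL, 18908 with GDF15 and 17339 with TGF-β. The sum hides opposite directions with TGF-β. *Col3a1*, *Vim*, *Pdgfra*, *Pdgfrb*, *Dcn* and *S100a4* were lower than in CTRL, and *Col1a1*, *Col1a2*, *Thy1* and *Fn1* were higher. Of 7 markers of mature osteoblasts and osteocytes, 6 had a row, *Ibsp* and *Sost* were at 0 in every library, and the summed FPKM was 1.98, 1.92 and 2.35. Adipocyte, osteoclast and skeletal muscle markers each summed to at most 0.508 in any library, with 5 of 7, 3 of 6 and 4 of 6 genes at 0, among them *Pparg*, *Calcr* and *Myod1*. The 11 chondrocyte markers summed to 71.9, 64.4 and 66.3, most of it *Sox9* (68, 59.4 and 60.7), with *Col9a1* at 0. The low cartilage genes *Comp* (0.36, 0.989 and 1.39) and *Col10a1* (0.128, 0.423 and 1.03), picked out after their values were seen, ran the other way, with changes in log2(FPKM + 1) of 0.81 and 0.85 with TGF-β.

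By level per length, *Ank* stood far above the others, with an FPKM of 192 in CTRL, 205 with GDF15 and 193 with TGF-β. *Bglap2*, *Runx2*, *Bglap* and *Enpp1* followed at between 3.48 and 8.33 in CTRL, *Mgp* stood at 1.22 and *Alpl* at 0.0231. The CTRL interval of *Bglap* (4.2 to 9.43) held the levels of *Bglap2* and *Runx2*, so the order of these 3 genes was not resolved. In the GDF15 library both osteocalcin genes stood below *Runx2* (7.71) and *Enpp1* (5.2).

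**Figure D2:**
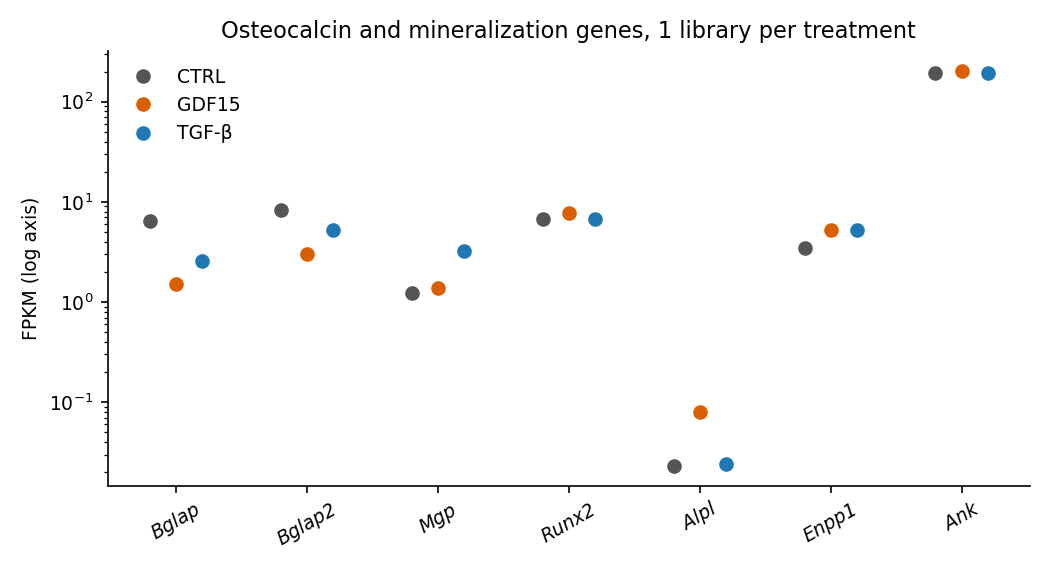
FPKM of the 7 members in the CTRL, GDF15 and TGF-β libraries, 1 library each, on a logarithmic axis. *Ank* lies near 200 throughout, the osteocalcin genes are highest in CTRL, and *Alpl* lies below 0.1 in each library.

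Osteocalcin expression was lower after both stimuli. *Bglap* stood at an FPKM of 6.38 in CTRL, 1.51 with GDF15 and 2.56 with TGF-β. *Bglap2* stood at 8.33, 3 and 5.23. Both genes were highest in CTRL, and because they share most of their windows their values are not independent. With RNA from whole cultures, fewer cells that express a gene and less RNA per cell cannot be told apart.

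In estimated fragments, *Bglap* was covered by 26 in CTRL (95% interval 17 to 38.1), 7 with GDF15 (2.81 to 14.4) and 10 with TGF-β (4.8 to 18.4). Its FPKM was 4.23-fold lower in GDF15 than in CTRL (counting interval 1.84 to 11.9) and 2.49-fold lower in TGF-β (1.16 to 5.79). *Bglap2* was covered by 39 fragments in CTRL (27.7 to 53.3), 16 with GDF15 (9.15 to 26) and 23 with TGF-β (14.6 to 34.5). It was 2.78-fold lower in GDF15 (1.56 to 5.47) and 1.59-fold lower in TGF-β (0.946 to 2.85). The interval of *Bglap2* for TGF-β included no change, and the other 3 did not. Between the stimulated libraries neither gene differed beyond counting error, with TGF-β levels 1.7-fold (0.6 to 5.4) and 1.75-fold (0.889 to 3.56) those of GDF15 for *Bglap* and *Bglap2*.

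**Figure D3:**
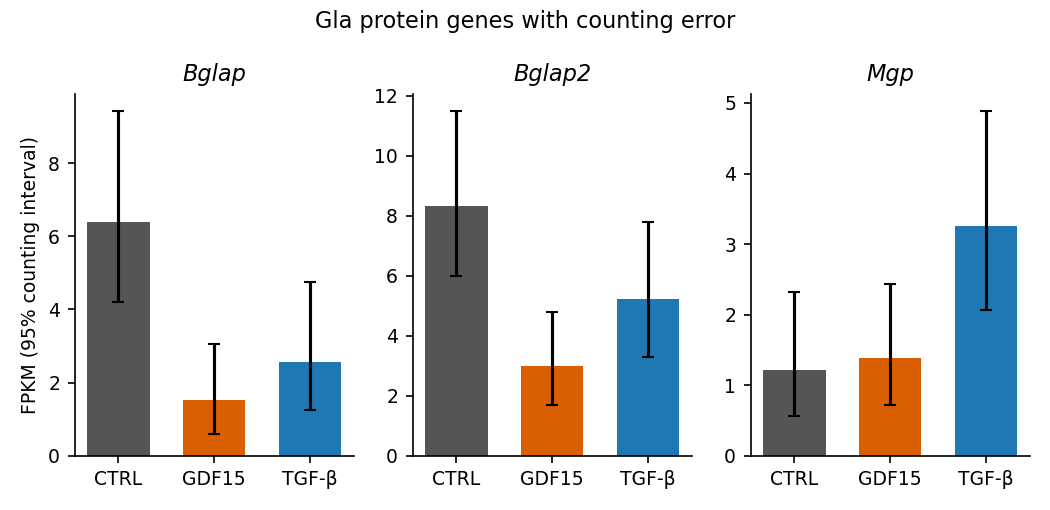
FPKM of *Bglap*, *Bglap2* and *Mgp* in each library (bars, linear axis from 0) with 95% exact Poisson intervals on the estimated fragments (lines). The GDF15 interval of *Bglap* (0.595 to 3.05) lies below its CTRL interval (4.2 to 9.43). The CTRL and TGF-β intervals overlap for *Bglap*, *Bglap2* and *Mgp* (for *Mgp* 0.558 to 2.32 and 2.07 to 4.89). Overlap of single intervals is not the interval of a ratio, which for *Mgp* in TGF-β over CTRL was 1.19 to 6.55.

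The sum of *Bglap* and *Bglap2* depends less on how reads were divided between them. It was 14.7 in CTRL, 4.51 with GDF15 and 7.79 with TGF-β, from an estimated 64, 23 and 33 fragments. The sum was 3.27-fold lower with GDF15 than in CTRL (1.99 to 5.5) and 1.89-fold lower in TGF-β (1.2 to 2.92). Between the stimulated libraries it was 1.73-fold higher in TGF-β (0.999 to 3.13), and the interval just reached no difference. *Bglap* made up 43.4% of the sum in CTRL, 33.5% with GDF15 and 32.8% with TGF-β.

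The study counted a gene as differentially expressed when it changed over 2-fold, taken here as a difference in log2(FPKM + 1) above 1 or below -1. The added 1 makes the change of low genes smaller than their ratio. On this scale *Bglap* changed by -1.56 and *Bglap2* by -1.22 with GDF15. With TGF-β the changes were -1.05 and -0.58. Of the 7 members, 2 (*Bglap* and *Bglap2*) were over 2-fold with GDF15, 1 (*Bglap*) with TGF-β and 0 between the stimulated libraries. *Bglap* with TGF-β was close to the limit, and was not over 2-fold after scaling to a common upper quartile or with the trend with expression (-0.98) or length (-0.85) taken off. Over all genes, 0.289% were over 2-fold with GDF15, 0.913% with TGF-β and 0.103% between the stimulated libraries. Among the 9226 genes with a mean FPKM of 1 or more, which hold 6 of the members, the shares were 0.477% with GDF15 and 1.48% with TGF-β. Because the members were picked with these changes known, nothing is read from their count against these shares. Both comparisons use the same CTRL library, so its own deviation enters both.

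Counted from the lowest change of all genes, *Bglap* ranked 4 and *Bglap2* ranked 6 with GDF15. With TGF-β they ranked 41 and 311. The spread of changes among the 500 genes nearest in expression was 0.21 (a scaled median absolute deviation) for both genes with GDF15. *Bglap* lay at -7.23 and *Bglap2* at -5.91 such spreads from the local median, a spread between genes and not between cultures. The 500 genes were matched on FPKM and not on length. Most expressed genes have longer transcripts, with more fragments at the same FPKM. This spread therefore does not measure the counting error of the osteocalcin genes. Over the 7 members the median change was 0.10 with GDF15 and 0.01 with TGF-β, beside 0.00 over all genes, and the osteocalcin genes were the only members with lower FPKM than CTRL in each case. Of the other 5 members, *Alpl*, *Runx2* and *Ank* changed by at most 0.01 with TGF-β.

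**Figure D4:**
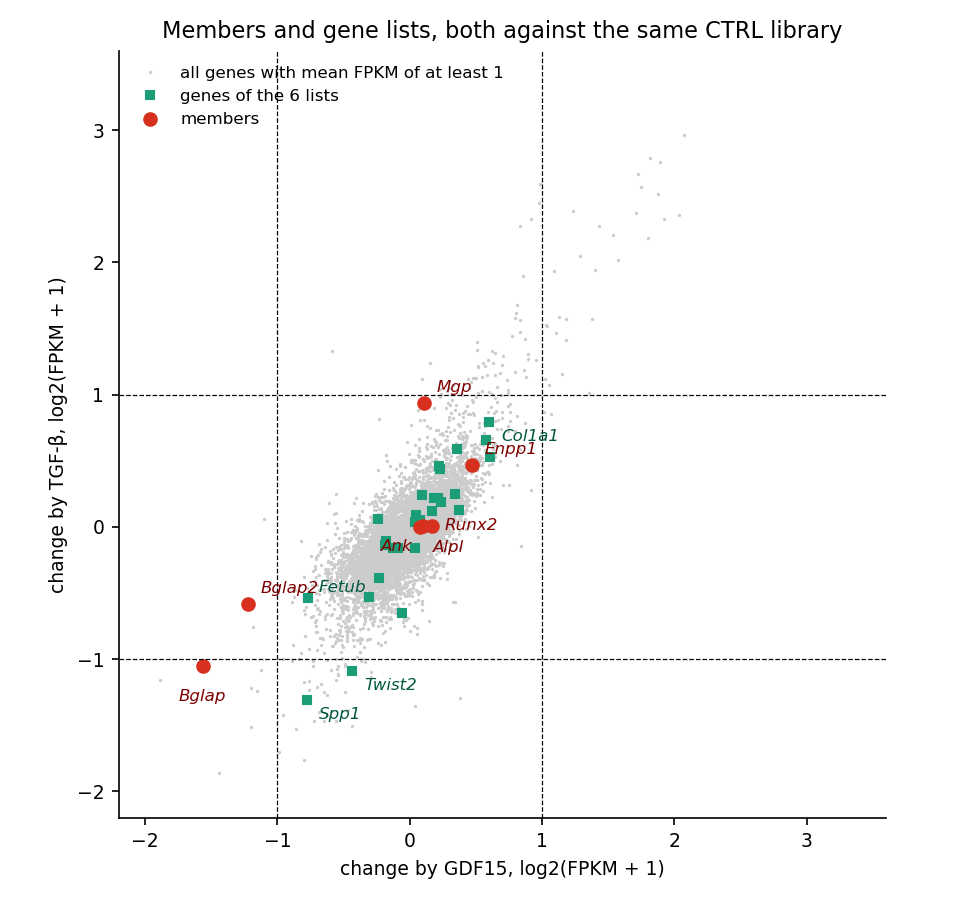
Change by GDF15 (horizontal) and by TGF-β (vertical) in log2(FPKM + 1) against the shared CTRL library for genes with a mean FPKM of 1 or more (grey), genes of the 6 lists (squares) and the members (circles; *Alpl* is drawn although its mean is lower). Dashed lines mark 2-fold. *Bglap* lies past both lines at -1.56 and -1.05, and *Mgp* lies near 0.11 and 0.94.

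The osteocalcin transcripts are short, and short transcripts as a class stood lower in the stimulated libraries. Among genes with a mean FPKM of 1 or more, the 83 with transcripts of up to 600 bases had a median change of -0.45 with GDF15 and -0.27 with TGF-β, whereas the 479 over 8000 bases had 0.17 and 0.05. The 500 genes nearest in length to *Bglap* and *Bglap2* were the 500 shortest of these genes, most of them over 600 bases. Their medians, -0.33 and -0.20, were smaller in size than those of the class up to 600 bases. With these medians taken off as the length trend, the change with GDF15 was -1.23 for *Bglap* and -0.89 for *Bglap2*. *Bglap2* was then no longer over 2-fold. With TGF-β it was -0.85 and -0.38, so that *Bglap* was no longer over 2-fold either. A comparison chosen after the values were seen took the 33 other genes with transcripts of up to 600 bases and a mean FPKM between 1 and 30. With GDF15, 31 of them were lower, with a median of -0.26, and the lowest stood at -0.88, above both osteocalcin genes. With TGF-β, 30 were lower and the lowest stood at -0.61, below *Bglap2* (-0.58) but above *Bglap* (-1.05). The part of transcript length in the osteocalcin values was not tested further.

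**Figure D5:**
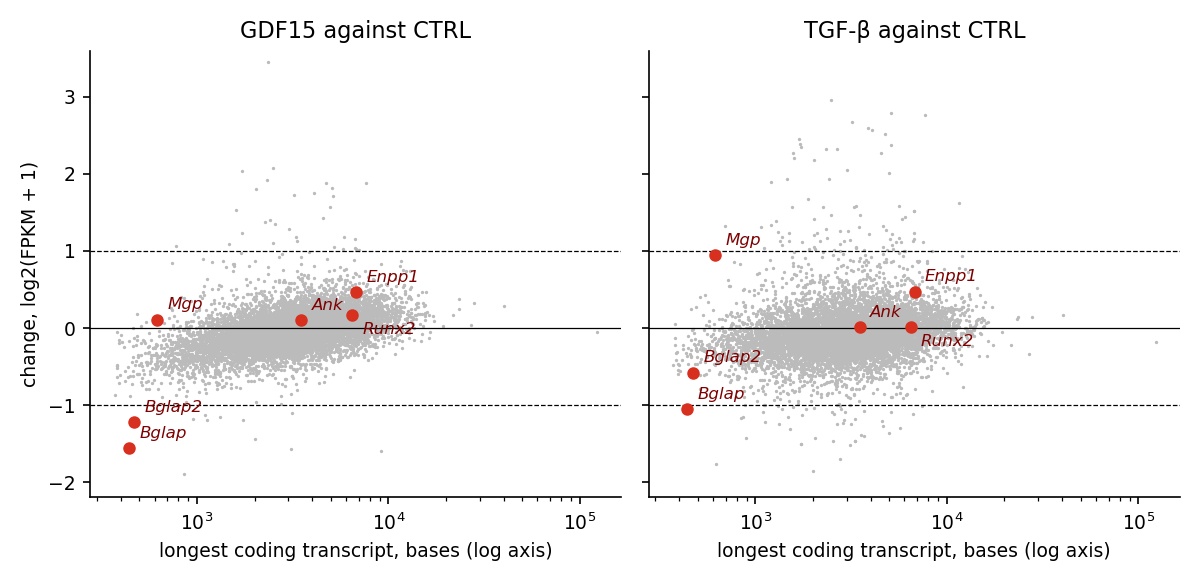
Change in log2(FPKM + 1) against transcript length (logarithmic axis, bases) for genes with a mean FPKM of 1 or more (grey) and the members (marked; *Alpl* is below that mean), for GDF15 (left) and TGF-β (right) against CTRL. Dashed lines mark 2-fold. Genes at the short end lie mostly below 0 in both panels, and with GDF15 *Bglap* (-1.56) and *Bglap2* (-1.22) lie below all other genes of up to 600 bases with a mean FPKM of 1 to 30.

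Other genes near *Bglap* and *Bglap2* had smaller changes. *Paqr6* ends 9195 bases from *Bglap2* and stood at an FPKM of 0.0364, 0.0312 and 0.115 in CTRL, GDF15 and TGF-β. *Pmf1*, 9679 bases from *Bglap* on the other side, stood at 14.9, 11.4 and 10.4, with changes of -0.36 and -0.48. *Cct3*, *Tmem79*, *Smg5*, *Slc25a44* and *Sema4a*, also within 60000 bases, changed by at most 0.10 in either comparison. None of these 7 genes was over 2-fold. *Glmp*, also in that window, was not analysed here.

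The genes most like each osteocalcin gene were found by the distance between their pairs of changes, over 9220 genes and only 2 comparisons. For *Bglap* the nearest were *Prl2c3* (distance 0.35), *Tslp* (0.394), *Sap25* (0.436), *Klk8* (0.443) and *Cxcl1* (0.479). *Prl2c3*, a member of the prolactin family with close paralogs that may share its reads, stood at 105, 27.5 and 46.4, and *Tslp*, a cytokine, at 10.7, 4.08 and 4.02. For *Bglap2* the nearest were the chemokine gene *Cxcl1* (0.178), *Myeov2* (0.329), the natriuretic peptide gene *Nppb* (0.352), *Npff* (0.361) and *Atp5k* (0.373). *Cxcl1*, which was near both, stood at 3.22, 0.86 and 1.5. *Npff* (446 bases) and *Atp5k* (371 bases) have transcripts about as short as those of osteocalcin.

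*Mgp*, the other Gla protein of the set (chr6:136872435-136875823, minus strand), had its highest level in TGF-β. It stood at an FPKM of 1.22 in CTRL, 1.39 with GDF15 and 3.26 with TGF-β, from an estimated 9 (4.12 to 17.1), 12 (6.2 to 21) and 23 fragments (14.6 to 34.5). The TGF-β level was 2.68-fold that of CTRL (1.19 to 6.55) and 2.34-fold that of GDF15 (1.12 to 5.17). GDF15 and CTRL could not be told apart at this depth (ratio 1.14, 0.441 to 3.06).

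On the log2(FPKM + 1) scale the change of *Mgp* with TGF-β was 0.94, just under 2-fold, although the ratio of FPKM was above 2. It was 1.13 with 0.5 added in place of 1, and 1.14 with the length trend taken off. With GDF15 its change was 0.11, or 0.44 with the length trend taken off, beside -1.56 for *Bglap* and -1.22 for *Bglap2*. *Mgp* ranked 100 from the highest change of all genes with TGF-β and 23 between the stimulated libraries.

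*Runx2* (chr17:44495987-44814797, minus strand) stood at nearly the same level in the 3 libraries, with an FPKM of 6.77 in CTRL, 7.71 with GDF15 and 6.81 with TGF-β. An estimated 793, 1058 and 765 fragments lay behind these values, taking the longest coding transcript (6463 bases). *Runx2* has 13 transcripts, and if shorter ones were expressed the fragments would be fewer and the intervals wider. The GDF15 level was 1.14-fold that of CTRL (1.04 to 1.25), an excess over the counting error at that length. This excess was smaller than the local spread between genes (change 0.17, or 0.05 with the length trend taken off, spread 0.22). The TGF-β level was 1.01-fold that of CTRL (0.911 to 1.11).

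Other transcription factors of the osteoblast lineage were counted from a list of 12 genes, of which 5 were expressed (a mean FPKM of 1 or more) and 5 were at 0 in every library. With GDF15, 0 of the 12 were over 2-fold, and with TGF-β 1 was, in the lower direction. That gene was *Twist2*, known to hold back the activity of Runx2, at 24.3 in CTRL, 17.6 with GDF15 and 10.9 with TGF-β (changes -0.44 and -1.09). *Cbfb*, the partner that helps Runx proteins bind DNA, stood at 22.9, 29.2 and 27.5 (0.34 and 0.25). Of the 5 expressed genes, 3 were higher and 2 lower with each stimulus.

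*Enpp1* and *Ank*, which supply pyrophosphate, were not lower in the stimulated libraries. *Enpp1* (chr10:24637914-24712159, minus strand) stood at an FPKM of 3.48 in CTRL, 5.2 with GDF15 and 5.21 with TGF-β, from an estimated 429, 750 and 614 fragments. It was 1.49-fold higher in GDF15 (1.33 to 1.69) and 1.5-fold higher in TGF-β (1.32 to 1.7), with a change of 0.47 in both. This was 2.2 local spreads above the median of genes of like expression in each comparison, and under 2-fold. The stimulated libraries themselves had the same level (ratio 1, 0.898 to 1.11).

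*Ank* (chr15:27466677-27594909, plus strand) rested on an estimated 11785 fragments in CTRL, 14778 with GDF15 and 11345 with TGF-β. At this depth its ratios were narrow, 1.07 for GDF15 (1.05 to 1.1) and 1.01 for TGF-β (0.98 to 1.03). The changes of 0.10 and 0.01 were smaller than the local spreads of 0.30 and 0.28.

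*Alpl* (chr4:137741733-137796384, minus strand), the enzyme that removes pyrophosphate, was close to undetected. It stood at an FPKM of 0.0231 in CTRL, 0.0792 with GDF15 and 0.0242 with TGF-β, which correspond to about 1, 4 and 1 fragments. In CTRL and TGF-β this is below the level of 3 fragments (0.0695 and 0.0726), taken as the limit of detection. The ratio of GDF15 to CTRL was 3.43, with a counting interval from 0.338 to 168, so no difference in *Alpl* was detectable at this depth.

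The wider list of phosphate and pyrophosphate handling had 12 genes, 8 of them expressed. None of the 12 was over 2-fold with either stimulus, and of the 8 expressed genes 6 were higher and 2 lower with GDF15, and 5 higher and 3 lower with TGF-β. Their median change was 0.08 and 0.03, beside -0.03 and -0.07 over all expressed genes. The phosphate transporter gene *Slc20a1* stood at 40.6, 48 and 55.3 (changes 0.23 and 0.44). *Enpp3*, of the same family as *Enpp1* and named after its values were seen, stood at 3.9, 3.72 and 2.12 (-0.06 and -0.65). *Fam20c*, which encodes a kinase of secreted mineral-binding proteins, stood at 19.3, 16.8 and 17.4 (-0.19 and -0.14).

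The bone and mineral-binding matrix proteins formed a list of 13 genes, of which 12 had a row, 6 were expressed and 3 were at 0 throughout. None was over 2-fold with GDF15, and 1 was over 2-fold lower with TGF-β. That gene was *Spp1*, which encodes osteopontin, an acidic phosphoprotein that binds mineral, at 556 in CTRL, 322 with GDF15 and 224 with TGF-β (changes -0.78 and -1.31). The genes of type I collagen, the main fibre of bone matrix and also a major fibroblast product, were higher. *Col1a1* stood at 1103, 1669 and 1902 (0.60 and 0.79) and *Col1a2* at 1233, 1841 and 1948 (0.58 and 0.66). *Fetub*, which encodes fetuin-B, stood at 4.13, 2.01 and 2.54 (-0.77 and -0.54). *Mepe* was not analysed here.

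The machinery that makes Gla residues was expressed. Of 10 listed genes of the vitamin K cycle and other Gla proteins, 9 had a row, 7 were expressed and none was over 2-fold. Of the 7, 6 were higher and 1 lower with each stimulus, with median changes of 0.21 and 0.13. *Ggcx*, the γ-glutamyl carboxylase itself, stood at 13.1, 15.3 and 15.4 (changes 0.21 and 0.22), and *Gas6*, which encodes a secreted Gla protein, at 1.36, 2.61 and 2.41 (0.61 and 0.53), both named after their values were seen. *Vkorc1*, which recycles vitamin K, stood at 24.9, 25.7 and 25.7 (0.04 and 0.04), and *Pros1*, which encodes the Gla protein protein S, at 17.7, 23.1 and 19.5 (0.37 and 0.13).

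Among 9 genes of hormone and BMP inputs to osteoblasts, 2 were expressed, 3 were at 0 and none was over 2-fold. *Vdr*, the vitamin D receptor, a known regulator of osteocalcin transcription, stood at 12.1, 10.1 and 12.6 (changes -0.24 and 0.06), and its partner *Rxra* at 13.4, 12.5 and 11.8 (-0.09 and -0.16). Of 7 genes of osteocyte and osteoclast coupling, only *Pdpn* was expressed, at 128, 103 and 88.7 (-0.31 and -0.53), and none was over 2-fold. *Tnfrsf11b*, which encodes osteoprotegerin, a decoy receptor that limits osteoclast formation, stood at 0.245, 0.473 and 1.01 (0.24 and 0.69). *Pdpn* marks early osteocytes but is also widely expressed in fibroblasts. Over the 6 lists together, 61 of 63 genes had a row and 29 were expressed. None was over 2-fold with GDF15, and 2 (3.28%), *Twist2* and *Spp1*, were over 2-fold lower with TGF-β. Over all genes in either direction the shares were 0.289% (GDF15) and 0.913% (TGF-β). *Twist2* and *Spp1* were expressed, and over all expressed genes the shares were 0.477% and 1.48%. The lists were chosen with earlier results of these data known, so nothing is read from these shares.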

How the data were processed

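The samples were 3 libraries (CTRL, GDF15 and TGF-β), each from RNA pooled within a treatment, and were assigned to groups by their labels. The authors made stranded libraries from mRNA, read 50 bases from a single end and deposited FPKM for 15554 genes, having kept those that code for a protein reviewed in UniProt. The submitters' processing notes name TopHat 1.3.2, Bowtie 0.12.9, Cufflinks 2.0.2 and mm10. The gene annotation, the strand setting and the treatment of reads with several matches were not given in the sources used here.

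The members and lists were chosen with earlier results of these data known. Genes named were the 7 members, the 2 of highest mean FPKM in each list, list genes over 2-fold or over 3 local spreads from the local median, and the 5 genes nearest to each osteocalcin gene by their pair of changes. The fibroblast markers, defining markers of other cell types and genes within 60000 bases of *Bglap* and *Bglap2* are named as well. Others are marked as chosen after their values were seen. A planned comparison gene is not reported here.

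Change is the difference in log2(FPKM + 1). Local spread is the scaled median absolute deviation over 500 genes nearest in mean expression. With 1 library per treatment no test was made. Depth was fitted to low FPKM values among 2185 genes with a single transcript, with 225 bases taken off each length. Transcripts as short as those of *Bglap* and *Bglap2* were left out of the fit, so their fragments and intervals are an extrapolation. Of 266, 308 and 291 low values, 66.9%, 71.1% and 73.2% came within 0.1 of a whole fragment, so numbers of fragments are estimates. Intervals (95%) are exact Poisson or conditional binomial, from fragments rounded to whole numbers. Lengths and coordinates came from GENCODE M21, matched for 15472 rows, and promoters from RefSeq (GRCm38.p6). The length of a gene is that of its longest coding transcript, so fragments are overestimated where shorter transcripts are expressed. Python 3.11.15, pandas 2.3.3 and scipy 1.17.1 were used. The scripts were tested on simulated data. Alternatives were other pseudocounts (0.5, 0.1, none), a minimum mean FPKM of 1, scaling to the same upper quartile, and taking off the trend with expression or with length.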

Additional observations from a re-analysis of the deposited data

How the results depend on the processing

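Of 151 values of single genes or of the osteocalcin sum between the stimulated libraries, 129 moved by less than the local spread between genes and 22 by more, and 1 changed sign, *Runx2* with TGF-β, from 0.01 to -0.01 with the length trend removed. Across the 7 alternatives *Bglap* ranged from -2.08 to -1.23 with GDF15 and from -1.32 to -0.85 with TGF-β, *Bglap2* from -1.47 to -0.89 and from -0.67 to -0.38, and *Mgp* from 0.94 to 1.42 with TGF-β. With the length trend removed, the summed change of *Bglap* and *Bglap2* with GDF15 was -1.18, and 1 member (*Bglap*) was over 2-fold. With TGF-β, 2 members (*Bglap* and *Mgp*) were over 2-fold at a pseudocount of 0.5, 0.1 or none, and 0 at a common upper quartile. With the length or expression trend removed the 1 member was *Mgp* in place of *Bglap*. Between the stimulated libraries, 1 member (*Mgp*) passed at a pseudocount of 0.1 and 2 (*Mgp* and *Alpl*) with none. Without a pseudocount *Alpl* also passed with GDF15. Over all genes, pseudocounts of 0.5, 0.1 and none put 71, 315 and 589 genes over 2-fold with GDF15, and 32, 227 and 525 between the stimulated libraries. With TGF-β the same settings gave 196, 489 and 789. A smaller pseudocount lets low genes pass by construction. No paired analysis was possible because 1 library stands for each treatment, and for the same reason no replicate could be left out. Depth limits *Bglap*, *Bglap2* and *Mgp*, whose values with either stimulus rest on under 30 fragments, and *Alpl* most.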
